A study of Homo sapiens with 4 samples.

Results

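The 10 genes *GAS5*, *SNHG1*, *SNHG5*, *SNHG6*, *SNHG7*, *SNHG8*, *SNHG12*, *SNHG15*, *SNHG16* and *ZFAS1* are non-coding hosts of small nucleolar RNAs (snoRNAs) whose spliced transcripts are known or thought to be degraded by nonsense-mediated mRNA decay (NMD). They were taken by symbol from a written list that was drawn up with earlier results of these data known, though its rule uses no measured value, and all 10 were found among the 16813 genes listed in at least 1 library. RNA was sequenced from the EGFR-mutant lung adenocarcinoma cell line PC9 (genotype WT, phenotype control) and from PC9OR, a line derived from it that is resistant to the EGFR inhibitor osimertinib. Each line gave 2 biological replicates, and both were grown in the same medium with serum. No drug treatment of the sequenced cells is named in the labels. PC9OR is a single resistant line, so what belongs to resistance and what belongs to other changes since the lines parted cannot be told apart.

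A snoRNA host is transcribed as a precursor with snoRNAs in its introns. The introns are cut out and trimmed into snoRNAs, which guide ribose methylation (C/D box snoRNAs) or pseudouridylation (H/ACA box snoRNAs) of ribosomal and other RNAs, while the joined exons carry only short reading frames. A ribosome that stops on such a frame well before the last exon junction marks the RNA for decay by the UPF and SMG proteins, so spliced hosts are widely used as reporters of NMD, and their promoters often begin transcription at a pyrimidine tract shared with ribosomal protein genes.

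The reading frame of *SNHG16* is shown because *SNHG16* was the only host whose difference between the lines passed the test. It is read from the spliced GENCODE transcript on GRCh37 that is nearest in length to the one counted. The first ATG and the stop codon that closes its frame are in capitals, and bases 35 to 136 are counted from the 5′ end of the transcript.
SNHG16: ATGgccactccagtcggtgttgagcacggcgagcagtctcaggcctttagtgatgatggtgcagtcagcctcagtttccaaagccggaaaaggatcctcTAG
The frame has 33 codons before the stop. Beyond the stop, *SNHG16* has 1 exon junction at a distance over 50 bases, the distance used for the junction rule of NMD, and it lies 71 bases away.

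Every one of the 10 transcripts had at least 1 junction placed in this way, and so did 73.1% of 7712 other spliced non-coding transcripts of support level 1 or 2 in the annotation. The layout was thus common among non-coding transcripts and not particular to the hosts. The frames ran from 12 codons in *SNHG15* to 117 in *ZFAS1*, and the number of such junctions ran from 1 in *SNHG7*, *SNHG15*, *SNHG16* and *ZFAS1* to 5 in *GAS5* and *SNHG1*. *SNHG1* has 11 exons and 31 codons, *SNHG12* has 6 exons and 49 codons, and *SNHG5* has 6 exons and 35 codons. The stop lay after 5.6% of the *SNHG16* transcript and after 58.7% of the *ZFAS1* transcript, the extremes of the group. The transcript read for *SNHG7* has 789 bases against a counted mean of 1000, the widest such gap. Each transcript was picked for its length, so a near length does not show that it was the form counted. *ZFAS1*, with the longest frame, was counted over 5 transcripts. The position of a frame says nothing of whether it was translated in these cells.

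**Figure D1:**
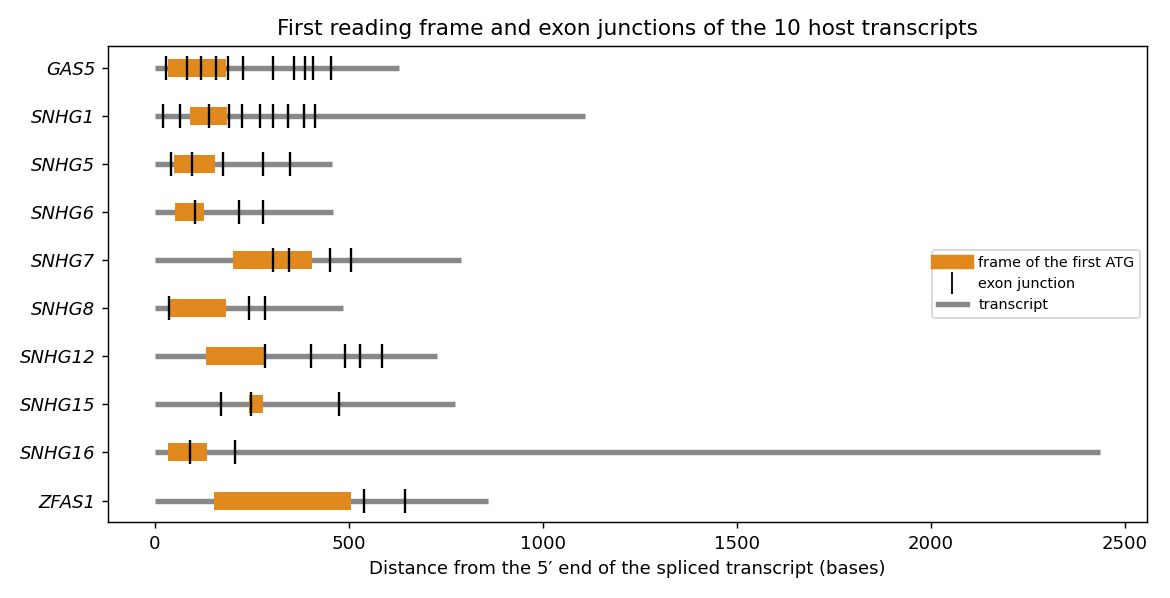
Spliced transcripts of the 10 hosts drawn to scale from the 5′ end in bases (grey), with the frame of the first ATG (orange) and the exon junctions (black ticks). In all 10 transcripts at least 1 junction lies more than 50 bases after the end of the frame, with 5 such junctions in *GAS5* and *SNHG1* and 1 in *SNHG16*, the longest transcript.

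The windows around the transcription start are shown because pyrimidine tracts recur in them. They cover 45 bases before the start and 25 from the start onward, from the RefSeq promoter table on GRCh38.p14, in which 8 of the 10 genes were found. Capitals mark the longest run of C and T that touches the interval from 5 bases before to 6 bases after the start, where it reaches 6 bases, and TATA between 40 and 11 bases before the start.
GAS5, chr1:173869021-173869090, minus strand: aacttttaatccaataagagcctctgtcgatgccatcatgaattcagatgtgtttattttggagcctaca
SNHG1, chr11:62855861-62855930, minus strand: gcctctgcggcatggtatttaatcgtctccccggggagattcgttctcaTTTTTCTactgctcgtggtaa
SNHG5, chr6:85678709-85678778, minus strand: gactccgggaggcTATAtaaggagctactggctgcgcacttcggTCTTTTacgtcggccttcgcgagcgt
SNHG7, chr9:136728160-136728229, minus strand: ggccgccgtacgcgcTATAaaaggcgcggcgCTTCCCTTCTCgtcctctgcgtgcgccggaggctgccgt
SNHG8, chr4:118278717-118278786, plus strand: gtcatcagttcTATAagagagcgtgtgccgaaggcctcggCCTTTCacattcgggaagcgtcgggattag
SNHG12, chr1:28581849-28581918, minus strand: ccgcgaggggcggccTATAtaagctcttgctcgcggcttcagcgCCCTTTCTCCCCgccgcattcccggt
SNHG16, chr17:76557719-76557788, plus strand: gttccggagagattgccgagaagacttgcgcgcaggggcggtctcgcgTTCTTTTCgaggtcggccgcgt
ZFAS1, chr20:49278597-49278666, plus strand: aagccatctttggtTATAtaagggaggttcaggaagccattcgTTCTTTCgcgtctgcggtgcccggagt
A run of at least 6 pyrimidines touching that interval was found in 7 of 8 windows, against 23.07% of 35116 promoters in the table. It need not cover the start itself. In *SNHG7* the run of 11 bases begins 14 bases before the start and ends before it. In *SNHG1* and *SNHG16* it begins after the start, at bases 5 and 4 of the transcribed sequence. A C at the start followed by 4 pyrimidines, which can be part of such a run, was found in *SNHG5*, *SNHG12* and *ZFAS1*, or 3 of 8, against 4.07% of all promoters. TATA, which reads the same on both strands, was found in *SNHG5*, *SNHG7*, *SNHG8*, *SNHG12* and *ZFAS1*, or 5 of 8, against 6.73%. Pyrimidine runs were read on the transcribed strand only. The windows belong to the start given in the table for each gene, which need not be that of the transcript counted, and a match is a description of letters and not a binding site.

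The libraries summed to between 23201307 and 32203998 expected counts (estimated reads per gene), with PC9 replicate 1 the shallowest. At 3 counts, the smallest value taken as detectable, the floor was between 0.0936 and 0.128 CPM (counts scaled to a common library size), far below every host, and it covers counting error only. The epithelial markers *EPCAM*, *KRT8*, *KRT18*, *KRT19* and *CDH1* were expressed in all 4 libraries. *KRT8* (log2 1.28), *KRT18* (1.13) and *KRT19* (0.96) were higher in PC9OR and *CDH1* (-1.46) was lower, and the part of these differences in the results on the hosts was not tested. Of the lung adenocarcinoma markers *SFTPB* was not listed and *NKX2-1* and *NAPSA* had at most 12 counts. Of the markers of other cell types, *PTPRC*, *CD3E* and *DCN* had at most 3 counts in any library, *COL1A1* and *COL1A2* stayed below 1 FPKM, *PECAM1* had at most 55.45 counts, and *CD68* and *CDH5* were lower in PC9OR. *CDH5*, a marker of endothelial cells, was at 34.7 and 24 CPM in PC9 and at 5.06 and 4.78 CPM in PC9OR, and its part in the results on the hosts was not tested. The biological coefficient of variation, a measure of the relative spread between replicates, was 0.241 for PC9 and 0.104 for PC9OR. The difference between the PC9 replicates followed transcript length, with a Spearman correlation across 12294 genes of -0.42, and genes are not independent replicates. The same correlation was 0.00 between the PC9OR replicates and -0.37 for PC9OR against PC9.

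Levels per length were compared as FPKM, which scales fragments by transcript length and library size. *GAS5*, a host of 11 snoRNAs named for its accumulation in growth-arrested cells, had the highest mean over the 4 libraries, at 137 FPKM. *SNHG16* followed at 81.6 and *ZFAS1* at 80.1, both with ranges that overlapped that of *GAS5*, and the order of these genes turned between the lines. *SNHG16* had 98.9 and 92.8 FPKM in PC9 against 44.4 and 74.7 for *ZFAS1*, whereas in PC9OR *ZFAS1* had 97.0 and 104 against 68.2 and 66.5 for *SNHG16*. *SNHG8* (64.3 FPKM), *SNHG6* (53.6) and *SNHG7* (50.9) came next, with ranges over the libraries that overlapped. *SNHG1* (28.3), *SNHG5* (26.8) and *SNHG15* (25.2) also overlapped one another, and their order differed between the lines. The mean of *SNHG5* was the lowest of the 3 in PC9, at 19.2 against 27.7 for *SNHG1* and 24.1 for *SNHG15*, and the highest in PC9OR, at 34.5 against 28.9 and 26.3 FPKM. *SNHG12* was lowest at 3.68 FPKM and did not overlap any other host.

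The comparison of PC9OR with PC9 asks whether these transcripts differed in level between resistant and parental cells. *SNHG16* was the only host that passed the test of edgeR (its quasi-likelihood test on all genes with Benjamini-Hochberg adjustment, called at an adjusted p below 0.05), and it was lower in PC9OR. Of the 10 hosts, 0 were called higher, where 15.6% of the 13148 genes tested were, and 1 was called lower, where 20.8% were. The fitted log2 fold change was above 0 for 8 hosts and below 0 for *SNHG12* and *SNHG16*, with a median of 0.46 against 0.01 over all genes tested and -0.02 over the 693 tested genes with non-coding transcripts alone. Both PC9OR libraries lay above both PC9 libraries for 6 hosts (39.6% of all genes) and below them for 2 hosts (38.2%). Without PC9 replicate 1, 3 hosts were called higher (21% of all genes) and 1 lower (23.1%), with a median of 0.17. Without PC9 replicate 2, 6 were called higher (29%) and 1 lower (28.9%), with a median of 0.75. With the replicate number as a block, 5 were called higher (19.7%) and 1 lower (22.4%). In bulk RNA, fewer cells that express a gene and less of its RNA per cell cannot be told apart.

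**Figure D2:**
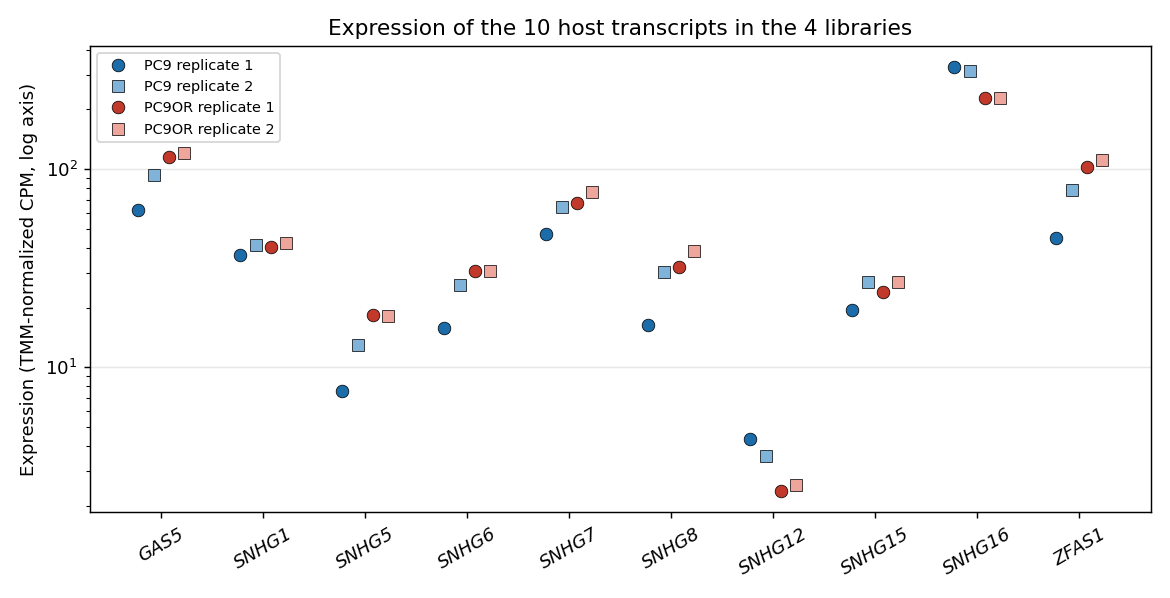
TMM-normalized CPM on a log axis for each host in the 4 libraries, 1 point per library. PC9 replicate 1 is the lowest library for 8 hosts, and *SNHG16* is at 327 and 311 CPM in PC9 against 229 and 228 CPM in PC9OR.

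Among the hosts with C/D box snoRNAs alone or in the main, *SNHG16* (chr17:74553848-74561430, plus strand), which holds 3 of them, was at 327 and 311 CPM in PC9 replicates 1 and 2 and at 229 and 228 CPM in PC9OR replicates 1 and 2. Both PC9OR libraries were below both PC9 libraries and lay within 1 CPM of each other. The level in PC9OR was 0.716 times that in PC9, with a log2 fold change of -0.48 ± 0.102 (SE, n = 2 per line) and an edgeR adjusted p of 0.0234. The call was lost without PC9OR replicate 1 and without PC9OR replicate 2, at log2 fold changes of -0.48 and -0.47. In these fits fewer of all genes were called as well. On the opposite strand *SNHG16* overlaps another annotated gene by 1639 bases. *SNHG7* (85 bases), *SNHG6* (115 bases), *GAS5* (42 bases) and *SNHG12* (8 bases) also overlap a gene on the opposite strand, and *SNHG5* overlaps an annotated protein-coding gene on its own strand by 1649 bases. The strand setting of the counting is not given in the sources used here, so the values of overlapping genes are uncertain to that extent.

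*GAS5* (chr1:173833038-173837127, minus strand), which holds *SNORA103* of the H/ACA kind beside its C/D box snoRNAs, was at 62.1 and 93.6 CPM in PC9 and at 115 and 121 CPM in PC9OR. PC9OR was higher in both libraries, but the PC9 replicates were themselves 1.51-fold apart, the same as the fitted 1.51-fold difference between the lines (log2 0.60 ± 0.212, edgeR adjusted p = 0.0788). *ZFAS1* (chr20:47894715-47905797, plus strand), which starts beside *ZNFX1* and overlaps it by 249 bases on the other strand, was at 44.8 and 78.0 CPM in PC9 and at 102 and 111 CPM in PC9OR. Its PC9 replicates were 1.74-fold apart and the lines 1.73-fold (log2 0.79 ± 0.272, edgeR adjusted p = 0.0747). *SNHG5* (chr6:86386803-86388454, minus strand), host of *SNORD50A* and *SNORD50B*, had the largest positive estimate. It was at 7.59 and 13 CPM in PC9 and at 18.3 and 18.2 CPM in PC9OR, with a log2 fold change of 0.82 ± 0.283 (edgeR adjusted p = 0.074). The 3 genes thus shared one order of the libraries, with PC9 replicate 1 lowest, PC9 replicate 2 between and both PC9OR libraries above, and 0 of the 3 passed the test. *SNHG6*, *SNHG7* and *SNHG8* had the same order. The share of all genes with this order was not counted.

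*SNHG6* (chr8:67834169-67837776, minus strand), host of *SNORD87*, followed that order at 15.7 and 26.1 CPM in PC9 and 30.6 and 30.7 CPM in PC9OR (log2 0.55 ± 0.257, edgeR adjusted p = 0.143). *SNHG1* (chr11:62619460-62623358, minus strand), host of 8 C/D box snoRNAs, was nearly level. It was at 37.0 and 41.4 CPM in PC9 and at 40.6 and 42.3 CPM in PC9OR, and the lines overlapped (log2 0.08 ± 0.119, edgeR adjusted p = 0.616).

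The hosts with H/ACA box snoRNAs alone are *SNHG7*, *SNHG8* and *SNHG15*, and 0 of the 3 passed the test. *SNHG7* (chr9:139619110-139622636, minus strand) was at 47.2 and 64.7 CPM in PC9 and at 67.3 and 76.2 CPM in PC9OR (log2 0.36 ± 0.185, edgeR adjusted p = 0.18). *SNHG8* (chr4:119199910-119200978, plus strand), host of *SNORA24*, showed the widest gap between the PC9 replicates of all hosts, 1.85-fold. It was at 16.4 and 30.4 CPM in PC9 and at 32.0 and 38.5 CPM in PC9OR (log2 0.59 ± 0.309, edgeR adjusted p = 0.185). *SNHG15* (chr7:45022622-45026295, minus strand) was at 19.4 and 27.0 CPM in PC9 and at 24 and 26.9 CPM in PC9OR, and the lines overlapped (log2 0.13 ± 0.199, edgeR adjusted p = 0.627).

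*SNHG12* (chr1:28905050-28908385, minus strand), which also holds both kinds, with *SNORD99* beside *SNORA16A*, *SNORA44* and *SNORA61*, was at 4.35 and 3.57 CPM in PC9 and at 2.37 and 2.53 CPM in PC9OR. These rest on between 75.56 and 103.23 expected counts per library, the fewest of the group. Both PC9OR libraries were lower, with a log2 fold change of -0.69 ± 0.282 and an edgeR adjusted p of 0.11. Its estimate had the opposite sign to those of the other hosts shorter than *SNHG16*, and it was also one of only 2 hosts, with *SNHG16*, that were lower in PC9 replicate 2 than in PC9 replicate 1.

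The hosts are short, with a median length of 771 bases against 2989 over all genes tested, so each was set beside 200 tested genes of the most similar length. Of each 200, between 5 (*SNHG16*) and 44 (*GAS5*) were counted on non-coding transcripts alone. The length ranges of the neighbours of *SNHG5*, *SNHG6* and *SNHG8* overlap, so the comparisons are not independent. The median log2 fold changes of the neighbours ran from 0.11 for *SNHG16* to 0.78 for *SNHG8*, with a median of 0.55. *SNHG5* and *ZFAS1* lay above the median of their neighbours in length, by 0.07 and 0.27, and the other 8 hosts lay at or below it. *GAS5*, at 0.60, was level with its neighbours, and 49.0% of them had a lower log2 fold change. *SNHG12* was furthest below, at -1.27 from the median and with 8.0% of its neighbours lower still, followed by *SNHG16* at -0.60 (23.0% lower). The median distance of the hosts from their neighbours was -0.20.

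**Figure D3:**
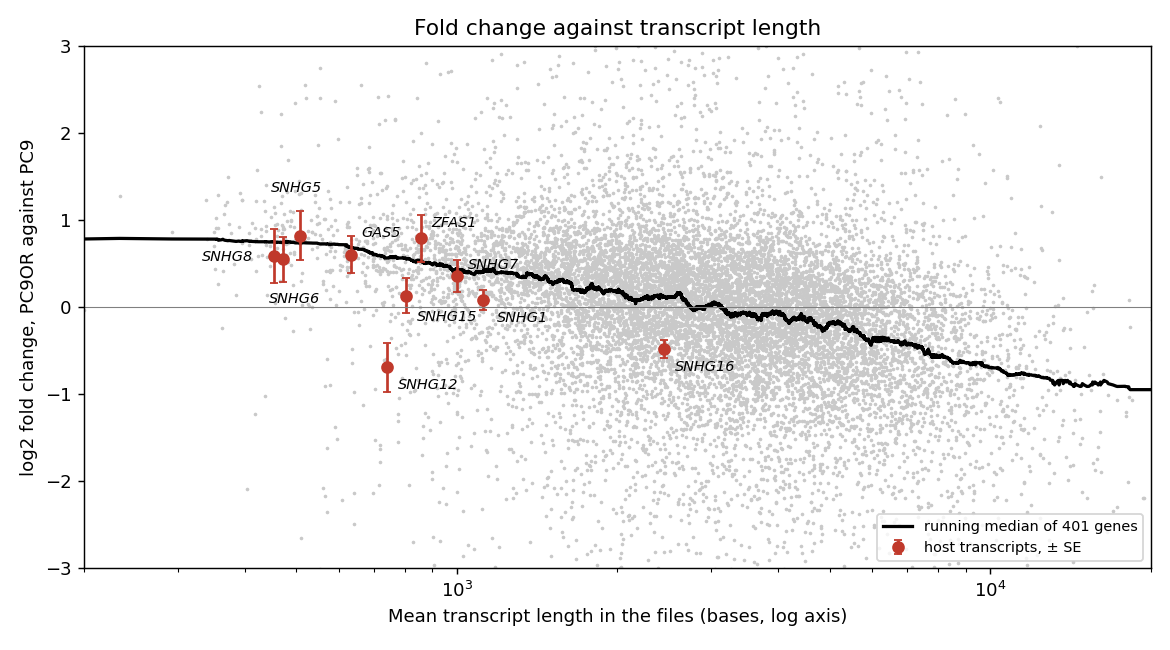
log2 fold change of PC9OR against PC9 against mean transcript length in bases (log axis) for the genes tested (grey, cut at 3 in either direction), with the running median along length (black) and the 10 hosts (red, ± SE). The black line falls with length, and *SNHG1*, *SNHG12*, *SNHG15* and *SNHG16* lie below it by more than 1 SE.

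The same lean was present between the replicates of PC9. From PC9 replicate 1 to PC9 replicate 2, 8 of the 10 hosts were higher, with a median log2 difference of 0.53. It was 0.47 for genes near them in length and 0.00 over all genes tested. *GAS5* differed by 0.59, *SNHG5* by 0.77, *SNHG6* by 0.73, *SNHG8* by 0.88 and *ZFAS1* by 0.80 on the log2 scale between these replicates. Between the PC9OR replicates the hosts differed by between -0.01 and 0.27. For *GAS5*, the mean of PC9OR was 0.92 above PC9 replicate 1 and 0.33 above PC9 replicate 2, on the log2 scale. For *ZFAS1* these distances were 1.24 and 0.44.

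With offsets that remove the trend with length from each library, 0 hosts were called higher (20.1% of all genes were) and 2 were called lower (18.6% of all genes were). *SNHG12* was at -1.24 ± 0.345 (edgeR adjusted p = 0.0367) and *SNHG16* at -0.50 ± 0.0991 (edgeR adjusted p = 0.0139). The median of the hosts was -0.10, against 0.07 over all genes tested and -0.13 over those with non-coding transcripts alone. *ZFAS1* had the largest positive value, 0.36 ± 0.165 (edgeR adjusted p = 0.132), and *GAS5* stood at 0.04 ± 0.107 (edgeR adjusted p = 0.788). The signs of *SNHG1*, *SNHG6*, *SNHG7*, *SNHG8* and *SNHG15* turned negative, so that 3 hosts were above 0 and 7 below. With offsets for length and GC content, 9 hosts were below 0, 0 were called higher (22.3% of all genes were) and 5 were called lower (19.6% of all genes were), namely *SNHG1*, *SNHG6*, *SNHG8*, *SNHG12* and *SNHG16*. The GC content used was that of the longest annotated transcript of each gene, which need not be the one counted.

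**Figure D4:**
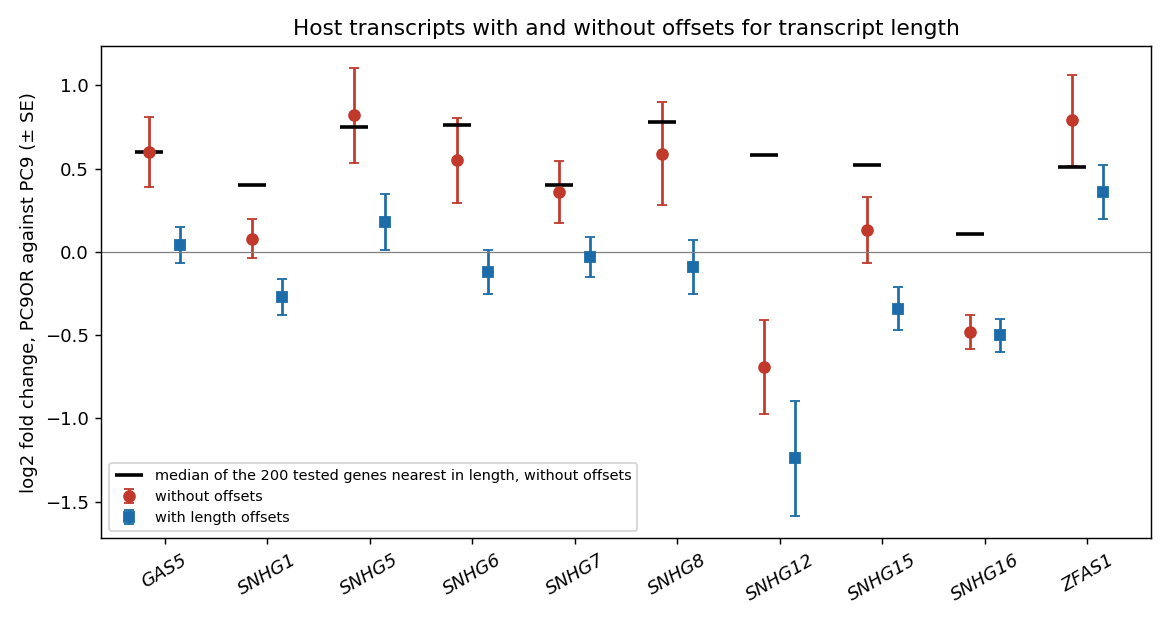
log2 fold change (± SE) of each host without offsets (red circles) and with length offsets (blue squares), and the median of the 200 tested genes nearest in length without offsets (black bars). *SNHG12* moves from -0.69 to -1.24, *SNHG16* stays near -0.50, and the other hosts move toward or below 0.

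Of 19 other snoRNA hosts listed as non-coding, 15 could be tested, of which *SNHG28* and *SNHG32* were counted on transcripts annotated as coding. Of the 15, 2 were called higher (15.6% of all genes were) and 0 lower (20.8% were), with a median log2 fold change of 0.39. *SNHG29* was at 209 and 297 CPM in PC9 and at 481 and 499 CPM in PC9OR (log2 0.95 ± 0.19, edgeR adjusted p = 0.0203), and it was also called with length offsets (0.58, edgeR adjusted p = 0.0141). *SNHG30* was at 6.14 and 6.86 CPM in PC9 and at 10.1 and 12.2 CPM in PC9OR (log2 0.78 ± 0.206, edgeR adjusted p = 0.0398), and it was not called with length offsets (0.30, edgeR adjusted p = 0.28). Mature snoRNAs themselves could not be followed, since 0 genes with snoRNA symbols are listed in the files.

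Of 36 protein-coding snoRNA hosts, 5 were called higher (15.6% of all genes were) and 6 lower (20.8% were). Their median log2 fold change was 0.45 (0.08 with length offsets). With length offsets, 3 were called higher (20.1% of all genes were) and 8 lower (18.6% were). With PC9 replicate 1 left out and no offsets, 1 PC9 library remained. More of this list were then called in both directions, mainly higher, and more of all genes were called too. *EIF4A2*, an RNA helicase of translation initiation, rose by 1.34 on the log2 scale (edgeR adjusted p = 0.00982), the ribosomal protein gene *RPL12* by 0.61 and *TPT1* by 0.50. Lower were the import receptor *TNPO2* (-1.16), the translation regulator *EIF4G2* (-0.96), the nucleolar protein gene *NCL* (-0.88) and *RPL27A* (-0.78). With length offsets *RPL12* was at 0.06 and was not called (edgeR adjusted p = 0.661). *EIF4A2* (1.22), *TPT1* (0.76) and all the genes named as lower were still called with these offsets.

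Of 16 coding genes known as NMD substrates, 4 were called higher (15.6% of all genes were) and 4 lower (20.8% were). Their median was -0.10. With length offsets, 4 were called higher (20.1% of all genes were) and 5 lower (18.6% were), with a median of 0.01. Higher were the splicing factors *SRSF3* (log2 0.78), *SRSF7* (0.67) and *SRSF2* (0.50), whose unproductive isoforms carry early stop codons, and *TBL2* (0.49). Lower were the kinase gene *MAP3K14* (-1.31), the stress gene *GADD45A* (-1.29), *RASSF1* (-0.97) and the uridine phosphorylase gene *UPP1* (-0.77). Gene counts do not separate the isoforms that decay from those that do not.

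Of 24 genes of NMD and decapping factors, 2 were called higher (15.6% of all genes were) and 4 lower (20.8% were). With length offsets, 5 were called higher (20.1% of all genes were) and 4 lower (18.6% were). The counts without offsets changed when PC9 replicate 1 was left out. *SMG1*, the kinase of UPF1, was lower by -1.44 without offsets (edgeR adjusted p = 0.00841) and was not called with length offsets (-0.28, edgeR adjusted p = 0.0883). *UPF3B*, which links UPF1 to exon junctions, was at 22.3 and 16.7 CPM in PC9 and at 8.83 and 10.7 CPM in PC9OR (edgeR adjusted p = 0.0244). *DCP1A*, a cofactor of decapping, was lower at a log2 fold change of -1.07. *PNRC2* (0.52) and the junction complex gene *RBM8A* (0.47) were higher.

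Of 15 genes of snoRNP proteins, which bind and mature snoRNAs, 2 were called higher (15.6% of all genes were) and 3 lower (20.8% were). With length offsets, 4 were called higher (20.1% of all genes were) and 4 lower (18.6% were). The number called higher without offsets changed when PC9 replicate 1 was left out. The C/D box core proteins *NOP58* (-0.60) and *NOP56* (-0.56) and the H/ACA assembly factor *NAF1* (-2.01) were lower. The assembly factors *ZNHIT3* (0.98) and *RUVBL2* (0.82) were higher. *NOP56* is also a coding host and is counted in both lists.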

How the data were processed

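RNA from 2 biological replicates each of PC9 and PC9OR cells was sequenced from TruSeq Stranded libraries. The submitters' processing notes name Bowtie2 2.2.5, RSEM 1.2.12 and GRCh37, and reads were filtered with SOAP. The authors deposited, per gene and library, an expected count (not normalized), an FPKM value (scaled by length and library size) and an isoform-weighted length in bases. How many reads were mapped per library is not given in the sources used here.

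Expected counts were rounded and tested on all genes with edgeR 4.0.16 in R 4.3.3 (TMM, filterByExpr, quasi-likelihood), which left 13148 genes. CPM values are TMM-normalized. The paper names DEGseq for this contrast, which was not run. Genes absent from a library were set to 0, and symbols were found for 99.66% of gene identifiers. Offsets for length, or for length and GC content, came from a smooth term per library (mgcv 1.9.3). GC content was read from the longest GENCODE transcript with the gene symbol and not from the counted transcript. On simulated libraries of 13148 genes for PC9OR against PC9, 96% of 200 changed genes were recovered with 5 false calls. With a trend in length added, false calls were 1772 without offsets and 13 with them. The added trend was a straight line in log length that differed between the lines. A curve fitted to the same length could be counted on to remove it. The simulation thus does not show how well the offsets fit the trend in these data.

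Across the genes tested, the deviations of PC9 replicate 1 and PC9OR replicate 1 from the means of their lines had a correlation of 0.055. Replicates were therefore not paired. Alternatives were DESeq2 1.42.0 size factors and Wald test, other filters, the replicate block, length and GC offsets, limma 3.58.1 on log2(FPKM + 1) and log2(FPKM + 0.1), each library left out, and 50 or 500 genes of similar length. Transcripts came from GENCODE on GRCh37, and the names of snoRNAs within hosts from RefSeq on GRCh38.p14. All hosts were named, and from each other list the called genes, at most 4 per direction by size of change. The members and lists were chosen with earlier results of these data known. The results for 2 single genes that this rule names, and 1 sequence, are not reported here.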

Additional observations from a re-analysis of the deposited data

How the results depend on the processing

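*SNHG16* was lower at every setting, between -0.53 and -0.45, and was called in 12 of 14. The number of hosts called higher, 0 as reported, was 3 with DESeq2's Wald test (*GAS5*, *SNHG5*, *ZFAS1*), where 2439 of all genes were. It was 1 with length offsets and the replicate block together, where 3368 of all genes were. The number called lower, 1 as reported, was 2 with length offsets (2441 of all genes were lower) and 2 with the block added (2761). It was 5 with length and GC offsets (2576). With limma it was 2 on log2(FPKM + 1) (2654) and 2 on log2(FPKM + 0.1) (2751). Each case of 2 was *SNHG12* and *SNHG16*. The median of the hosts, 0.46, was -0.10 with length offsets, with and without the block, and -0.32 with length and GC offsets. Leaving out each library in turn gave 0 to 6 hosts higher, 0 to 1 lower and a median of 0.17 to 0.75, and over all genes 525 to 3932 higher and 1177 to 3929 lower. The 6 arose without PC9 replicate 2, and 3 (*GAS5*, *SNHG5*, *ZFAS1*) without PC9 replicate 1, where the median was 0.17. In both, the lone PC9 library was assumed to vary like PC9OR. Without either PC9OR replicate no host was called, and fewer of all genes were called as well. The cause of these changes was not tested.

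With the replicate number as a block, 5 hosts were called higher (*GAS5*, *SNHG5*, *SNHG6*, *SNHG8*, *ZFAS1*) and 1 lower, where 2593 of all genes were higher and 2946 lower. With the block and length offsets together, 3368 genes were called higher over all genes, against 2056. The libraries share only a number, so this pairing is not part of the design.

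Signs turned with length offsets for *SNHG1* (-0.27), *SNHG6* (-0.12), *SNHG7* (-0.03), *SNHG8* (-0.09) and *SNHG15* (-0.34). With the block added these were -0.27, -0.11, -0.02, -0.08 and -0.34. With length and GC offsets *GAS5* (-0.22), *SNHG1* (-0.43), *SNHG5* (-0.05), *SNHG6* (-0.36), *SNHG7* (-0.10), *SNHG8* (-0.36) and *SNHG15* (-0.27) turned. Over the libraries left out in turn, *SNHG1* ran from -0.01 to 0.15 and *SNHG15* from -0.10 to 0.38, negative without PC9 replicate 1. Of the 140 values of single hosts under the alternatives, 96 kept their direction and their side of the threshold.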
